A study of Mus musculus with 17 samples.

Results

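The phagocyte NADPH oxidase and its relative NOX4 were followed at the transcript level in 17 mouse hearts. Cybb, Cyba, Ncf1, Ncf4, Rac2 and Nox4 were chosen by name, as the rows whose gene identifier belongs to these symbols, and all 6 were found among the 31647 features of the count table. The 17 hearts came from male wild-type C57BL/6J mice, 8 to 11 weeks old at surgery. In 9 mice the left anterior descending coronary artery was permanently ligated without reperfusion, and RNA was taken 5 days later from the dissected infarct zone (IZ). The other 8 mice had a sham operation without ligation, and RNA came from left ventricular tissue. The groups therefore differed both in treatment and in the part of the ventricle that was sampled.

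The oxidase of phagocytes makes superoxide in a burst. Its catalytic core in the membrane is a pair of proteins, gp91phox (NOX2, gene Cybb) and p22phox (gene Cyba). In resting cells the core is silent. On activation cytosolic subunits, among them p47phox (Ncf1) and p40phox (Ncf4), and a GTP-loaded Rac protein join it, and electrons pass from NADPH to oxygen. NOX4 shares the partner p22phox, needs none of the cytosolic subunits, is active once it is made and releases mainly hydrogen peroxide. In the heart NOX2 is known from macrophages and neutrophils and also from muscle and endothelial cells, and NOX4 from cardiomyocytes, fibroblasts and endothelial cells.

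Counts came from 3' end tags with molecular identifiers, so that a transcript molecule gave 1 tag whatever its length, and levels are given in CPM, the usual depth-scaled count, with library sizes adjusted by the trimmed mean of M values (TMM). Totals ran from 1237675 to 4738307 counts per library. Mitochondrially encoded features took 22.9 to 32.4% of the counts in sham and 4.22 to 6.78% in IZ replicates 2 to 9, whereas IZ replicate 1 had 19.5% and stood apart. The summed level of the 5 cardiomyocyte markers Myh6, Tnnt2, Actc1, Ryr2 and Myl2 was 43087 to 50985 CPM in sham, 2229 to 5196 CPM in IZ replicates 2 to 9 and 21189 CPM in IZ replicate 1. Heart muscle was thus present in every library, and the values of IZ replicate 1 are given beside each result that rests on it.

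All 6 oxidase genes rose in the IZ. edgeR's quasi-likelihood test, run over 12301 genes, called each of them higher at a Benjamini-Hochberg adjusted p under 0.05, where 69.5% of all genes tested were called, 36.3% higher and 33.1% lower. Higher calls made up 52.3% of all calls with TMM scaling and 85.7% with total counts alone, and the 6 genes were called higher under both. In each of the 6, all 9 IZ libraries lay above all 8 sham libraries, as they did in 16.6% of the genes tested. The median log2 fold change of the 6 was 3.02, against 0.05 over all genes tested. The rises ran from 4.88-fold for Cyba to 9.93-fold for Cybb and placed the 6 genes between the 93.3rd and the 97.6th percentile of all log2 fold changes.

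**Figure D1:**
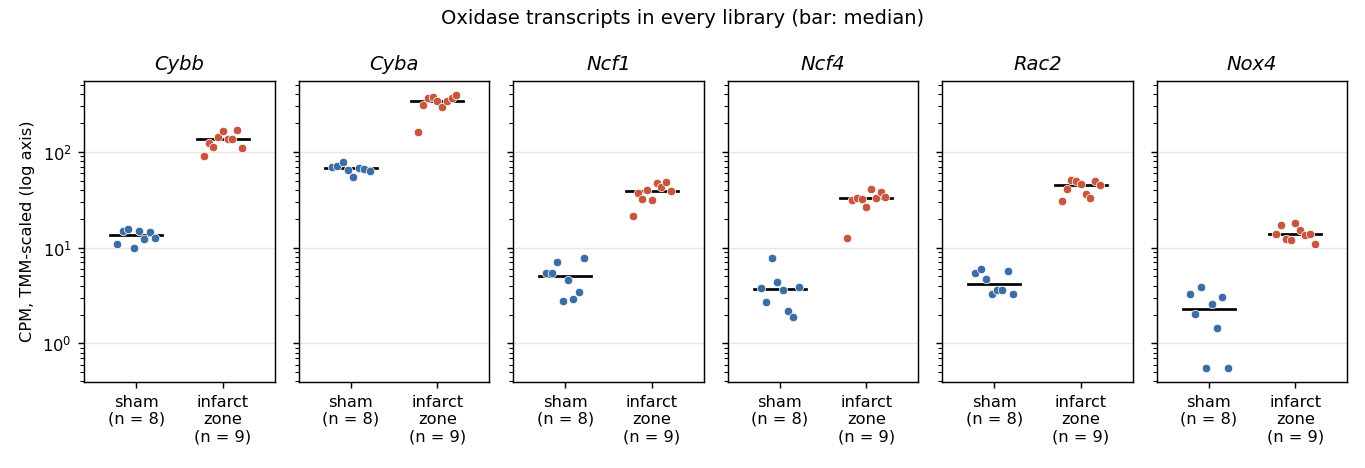
Level of the 6 oxidase transcripts in CPM (log axis) in each of 8 sham (blue) and 9 IZ (red) libraries, 1 panel per gene, with the median of each group as a bar. The groups did not overlap in any panel, and IZ replicate 1 was the lowest IZ library for Cybb, Cyba, Ncf1, Ncf4 and Rac2 but not for Nox4.

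Cybb (ENSMUSG00000015340, mouse build GRCm38, chromosome X, 9435252 to 9487771, minus strand) encodes the catalytic subunit of the phagocyte enzyme. In sham its level was 9.94 CPM at the lowest, 13.6 at the median and 15.7 at the highest, from 17 to 38 counts per library. In the IZ it was 89.7, 136 and 168 CPM, from 250 to 908 counts. The lowest infarct, replicate 1, was still well above the highest sham heart, and IZ replicate 8 was the highest. The log2 fold change was 3.31 ± 0.15 (SE), at an adjusted p value of 8.98e-14 by edgeR's quasi-likelihood test.

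Cyba (ENSMUSG00000006519, chromosome 8, 122424776 to 122432930, minus strand) encodes p22phox, which both NOX2 and NOX4 need. It was the most abundant of the 6 in every library, with 54.9, 67.2 and 79.2 CPM in sham (lowest, median and highest) and 161, 341 and 396 CPM in the IZ. IZ replicate 1 lay far below the other infarcts, which began at 297 CPM, but above all sham hearts. Its log2 fold change of 2.29 ± 0.15 (SE, adjusted p 1.13e-11, edgeR's quasi-likelihood test) was the smallest of the 6. An unclassified gene, Gm20388, overlaps Cyba on the other strand.

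The cytosolic organiser p47phox carries the activation signal to the core and is encoded by Ncf1 (ENSMUSG00000015950, chromosome 5, 134220053 to 134229625, minus strand, overlapped on the other strand by Gtf2ird2). Sham hearts had 2.76, 5.00 and 7.70 CPM (lowest, median and highest), from only 4 to 14 counts, and infarcts had 21.5, 38.8 and 48.1 CPM. Ncf4 (ENSMUSG00000071715, chromosome 15, 78244801 to 78262580, plus strand) encodes p40phox, which binds a membrane lipid of phagosomes. Its sham levels were 1.91, 3.69 and 7.84 CPM and its IZ levels 12.6, 33.0 and 41.4 CPM. For both genes the groups were separate, and IZ replicate 1 was the lowest infarct. The log2 fold changes were 2.95 ± 0.21 (SE) for Ncf1 and 3.09 ± 0.25 (SE) for Ncf4, with adjusted p values of 2.90e-11 and 2.53e-10 by edgeR's quasi-likelihood test.

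Rac2 (ENSMUSG00000033220, chromosome 15, 78559167 to 78572783, minus strand) is the Rac GTPase of blood cells and serves the oxidase in phagocytes. It lies 296586 bases from Ncf4, with 10 protein-coding genes between them. Levels were 3.30, 4.17 and 6.05 CPM in sham and 30.9, 45.5 and 50.6 CPM in the IZ (lowest, median and highest). The rise of 3.23 ± 0.17 (SE) on the log2 scale (adjusted p 4.80e-13, edgeR's quasi-likelihood test) was close in size to that of Cybb.

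Nox4 (ENSMUSG00000030562, chromosome 7, 87246096 to 87398710, plus strand) was the least abundant of the 6 in sham, with 0.550, 2.29 and 3.92 CPM from 1 to 8 counts per library. In the IZ it reached 11.04, 13.8 and 18.0 CPM from 25 to 124 counts. Here IZ replicate 1 was no low value but the fourth highest of 9, and replicate 9 was the lowest. Nox4 rose by 2.67 ± 0.26 (SE) on the log2 scale, or 6.35-fold, at an adjusted p value of 3.78e-09 by edgeR's quasi-likelihood test. The few sham counts leave the size of this rise less certain than that of Cybb, and thinning of all libraries to the smallest total gave 2.24.

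The start regions of both catalytic subunits are shown because Cybb and Nox4, related enzymes with a shared partner, both rose. The windows are from RefSeq (GRCm38.p6), 250 bases before to 50 after the annotated start, and read 5' to 3' along the gene: chrX:9469275-9469574 on the minus strand and chr7:87246399-87246698 on the plus strand. The gene spans given above are from GENCODE and begin upstream of these RefSeq starts for both genes. Capitals mark the ETS core GAGGAA, the kind of site that PU.1, the master factor of myeloid cells, binds, read on either strand.
Cybb: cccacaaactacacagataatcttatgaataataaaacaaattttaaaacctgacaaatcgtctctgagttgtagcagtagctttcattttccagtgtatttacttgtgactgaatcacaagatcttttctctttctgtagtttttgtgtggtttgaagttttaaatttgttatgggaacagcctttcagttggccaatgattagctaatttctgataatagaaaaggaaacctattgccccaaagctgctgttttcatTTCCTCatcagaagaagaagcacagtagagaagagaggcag
Nox4: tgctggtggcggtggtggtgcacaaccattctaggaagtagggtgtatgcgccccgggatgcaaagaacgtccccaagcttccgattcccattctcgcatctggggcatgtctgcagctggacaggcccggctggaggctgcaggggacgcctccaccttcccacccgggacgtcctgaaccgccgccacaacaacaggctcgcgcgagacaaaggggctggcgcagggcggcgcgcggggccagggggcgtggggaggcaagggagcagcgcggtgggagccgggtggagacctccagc

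The Cybb window held 1 match, on the opposite strand at bases 260 to 265 of the window, just after the RefSeq start. The Nox4 window did not hold these letters, nor did the windows of Cyba and Ncf1. Shorter or other forms of ETS sites were not searched. Those of Ncf4 and Rac2 were not searched. Of all 32851 windows of this length, 28.3% held the same letters on 1 strand or the other, so that the match describes the sequence and shows no binding.

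Levels among the 6 genes kept nearly the same order in both groups. Cyba was the highest and Cybb the next in every library, although Cyba in IZ replicate 1 was below the highest Cybb level of another infarct. Cybb did not overlap with the genes below it. Rac2, Ncf1 and Ncf4 followed within each other's ranges, and Nox4 was last by its median, although its range met those of Ncf1, Ncf4 and Rac2 in sham and that of Ncf4 in the IZ through replicate 1. Counted as a share of the tags of the 6 genes, Cyba took 70.3 ± 3.54% in sham (SD, n = 8) and 55.6 ± 4.21% in the IZ (SD, n = 9), and Cybb 13.9 ± 2.07% and 22.7 ± 3.27%.

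To compare genes without any scaling, 14 ratios of counts within a library were formed, and the gap between the group means of the log2 ratio was set against all 24310 assignments of the hearts (exact permutation test, two-sided), with 1 added to each count and Benjamini-Hochberg adjustment over the 14. The catalytic subunit gained on its partner. Cybb made 0.203 tags per tag of Cyba in sham and 0.407 in the IZ (geometric means), a log2 difference of 1.01 (exact permutation p 8.23e-05, adjusted 2.88e-04). All 9 infarcts lay above all sham hearts, but the lowest infarct (0.279) only just cleared the highest sham heart (0.278). Ncf1 and Ncf4 per Cybb had log2 differences of -0.41 and -0.35, and neither passed the test (exact permutation p 0.0364 and 0.177, adjusted 0.0787 and 0.275). Both passed with 5 added to each count, at -0.69 and -0.73 (exact permutation, adjusted p 6.91e-04 and 0.0036). Adding 5 raises a ratio below 1 most where counts are few, as in sham (4 to 14 for Ncf1, 3 to 10 for Ncf4). These passes therefore depend on the number added. Ncf1 per Cybb also passed without sham replicate 6 (-0.48, adjusted p 0.0439) or 7 (-0.50, adjusted p 0.0311).

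Among the Rac genes the balance moved towards Rac2. Rac1, the widely expressed Rac, rose only from 144 ± 15.6 CPM to 201 ± 30.4 CPM (mean ± SD, 8 sham and 9 IZ libraries), a log2 fold change of 0.48 ± 0.11 (SE, adjusted p 5.91e-04, edgeR's quasi-likelihood test). Rac2 per Rac1 went from 0.0344 in sham to 0.211 in the IZ, a log2 difference of 2.62 with no overlap (exact permutation p 4.11e-05, the smallest this test can give, adjusted 1.92e-04). Of all tags from Rac1, Rac2 and Rac3, Rac2 thereby held 2.06 to 4.41% in sham and 13.3 to 22.5% in the IZ. The 3' end of Rac1 is also part of a transcript annotated to Daglb, on the other strand, which leaves part of its counts uncertain. Sham libraries held 0 to 9 counts of Rac3 and infarcts 3 to 34, too few for the main test, and without a filter its log2 fold change was 0.63 at an adjusted p value of 0.244 by edgeR's quasi-likelihood test.

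**Figure D2:**
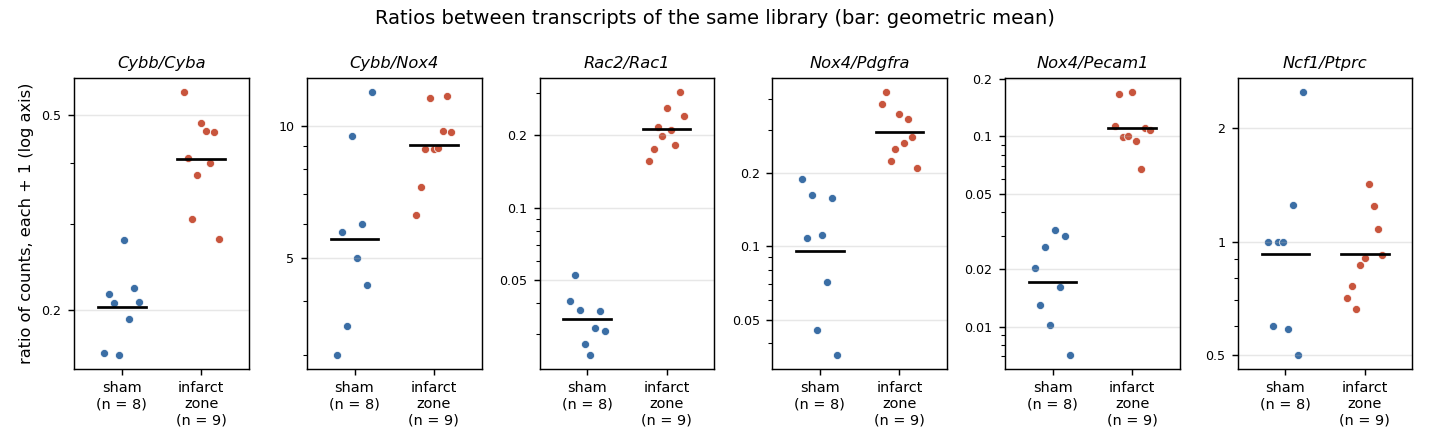
Ratios of counts between 2 transcripts of the same library, each count plus 1 (log axes, 1 panel per ratio), for 8 sham (blue) and 9 IZ (red) libraries, with the geometric mean as a bar. Cybb/Cyba, Rac2/Rac1, Nox4/Pdgfra and Nox4/Pecam1 showed no overlap between the groups, while Cybb/Nox4 and Ncf1/Ptprc overlapped. For Cybb/Cyba the groups only just separated (0.278 in the highest sham library, 0.279 in the lowest IZ library).

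Markers of white blood cells rose in the same hearts, where 36.3% of all genes tested were called higher. All 3 general leukocyte markers (Ptprc, Coro1a and Laptm5) and all 7 tested macrophage and monocyte markers (Adgre1, Cd68, Csf1r, Fcgr1, Ccr2, Ly6c2 and Mrc1) were called higher. Of these, Ly6c2 had the weakest call, with a log2 fold change of 0.64 and 5 of 9 infarcts above all sham hearts. It kept the call in 18 of 25 alternatives and lost it with DESeq2, after thinning and without sham replicate 1, 2 or 6 or IZ replicate 3 or 4 (adjusted p up to 0.0831). The summed level of the macrophage and monocyte list was 79.4 to 122 CPM in sham, 357 CPM in IZ replicate 1 and 604 to 758 CPM in the other infarcts. Of the 8 neutrophil markers, 4 had enough counts and all 4 were called higher. The sums over all 8 were 4.95 to 12.2 CPM in sham and 15.8 to 218 CPM in the IZ, with IZ replicate 1 at 15.8 CPM. The log2 fold changes of the 4 tested were 5.17 ± 0.59 for Csf3r, 4.98 ± 0.62 for Mmp8, 3.19 ± 0.57 for S100a8 and 2.93 ± 0.58 for S100a9 (SE). Sham counts were few, 0 to 3 per library for Csf3r and 0 to 2 for Mmp8, which leaves these sizes uncertain. IZ replicate 1 was the lowest infarct for all 4. All 9 infarcts lay above all sham hearts for Csf3r, but only 8 of 9 for Mmp8, S100a8 and S100a9. The coefficient of variation in the IZ was 93% for both S100a8 and S100a9. Cxcr2, Retnlg, Ly6g and Mpo had too few counts for the test. Ly6g and Mpo were at 0 in every sham library and had at most 1 and 7 counts in any infarct, and Cxcr2 and Retnlg at most 24 and 13. In whole tissue, more cells of a type and more RNA per cell cannot be told apart.

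Against Ptprc, the pan-leukocyte surface phosphatase CD45, no subunit of the phagocyte oxidase passed the test of its ratio. The log2 differences were 0.41 for Cybb, 0.25 for Rac2, 0.06 for Ncf4, -0.004 for Ncf1 and -0.60 for Cyba, and the adjusted p values ran from 0.0787 to 0.990 (exact permutation tests, Benjamini-Hochberg over the 14 ratios). Some alternatives did pass: Cybb per Ptprc with 5 added to each count (0.68, adjusted p 0.0036), and Cyba per Ptprc with medians (-0.42, adjusted p 0.0317) and without sham replicate 2 (-0.70, adjusted p 0.0430) or 5 (-0.73, adjusted p 0.0242), all by exact permutation. Cybb per Adgre1, the macrophage marker F4/80, was 1.09 in sham and 1.18 in the IZ, a log2 difference of 0.11 (exact permutation p 0.341, adjusted 0.398). Sham counts of Ptprc were only 3 to 19 per library. The log2 ratios to Ptprc had an SD of 0.54 to 0.90 in sham and 0.18 to 0.43 in the IZ. A ratio to Ptprc that did not pass is therefore not shown to be unchanged, and the size these tests could detect was not computed. Adding 5 to such low Ptprc counts draws a sham ratio towards 1, and the pass of Cybb per Ptprc depends on the number added.

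Nox4 was set against markers of the cells it is known from. Of the 4 fibroblast markers, Pdgfra, Col1a1 and Postn were called higher, where 36.3% of all genes tested were. Their log2 fold changes were 0.94, 4.002 and 3.95. Dcn was not called, with a log2 fold change of 0.04. Nox4, at 2.67, thus rose more than Pdgfra and Dcn but less than Col1a1 and Postn. Among these 4 markers a ratio was formed with Pdgfra only. Nox4 per Pdgfra, the receptor that marks fibroblasts, was 0.0952 in sham and 0.294 in the IZ, a log2 difference of 1.63. Nox4 per Pecam1, an endothelial adhesion molecule, was 0.0172 and 0.111, a log2 difference of 2.68. Both ratios were higher in all 9 infarcts than in all sham hearts (exact permutation p 4.11e-05 each, the smallest this test can give, adjusted 1.92e-04). The sizes depended on the number added to the counts: the log2 difference was 0.84 with 5 and 1.81 with 0.5 for Nox4 per Pdgfra, and 1.82 and 2.88 for Nox4 per Pecam1. Both passed with either number. Of the 4 endothelial markers, Kdr was called lower and Pecam1, Cdh5 and Tie1 were not called. All 5 cardiomyocyte markers were called lower, where 33.1% of all genes tested were. Under total counts the log2 fold change was 0.91 for Pecam1, 0.87 for Cdh5, 0.70 for Tie1 and 1.10 for Dcn. Pecam1, Cdh5 and Dcn were called higher there (adjusted p 7.74e-05, 2.71e-05 and 1.54e-07, edgeR's quasi-likelihood test). Tie1 was called lower in 2 of 26 alternatives. Whether these 4 were called thus depended on the processing. The kidney tubule marker Slc34a1 was at 0 in every library and Slc12a1 had 1 count in a single infarct. Which cells carried Nox4 was not tested.

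The balance between the catalytic subunits was 5.55 Cybb tags per Nox4 tag in sham and 9.07 in the IZ. This log2 difference of 0.71 (exact permutation p 0.0131, adjusted 0.0367) was not stable, since no infarct lay above all sham hearts and the adjusted p was 0.159 with 0.5 added to each count in place of 1. Leaving out sham replicate 1, 3, 5 or 7 or any of IZ replicates 3 to 9 also took the call away, with log2 differences of 0.58 to 0.71. Nox4 per Cyba did not pass the test, at 0.0365 in sham and 0.0449 in the IZ (exact permutation p 0.341, adjusted 0.398). With 5 added to each count it passed in the opposite direction (-0.53, exact permutation, adjusted p 0.0406). Sham hearts had 1 to 8 counts of Nox4, so that adding 5 raises the sham ratio most, and this pass depends on the number added.

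Of 4 tested partners of the phagocyte enzyme, 3 were called higher, where 36.3% of all genes tested were called higher, and the median log2 fold change of the 4 was 1.05. Hvcn1, the proton channel that balances the charge moved by the oxidase, rose by 3.30 ± 0.32 (SE) from 1 to 7 counts in sham to 28 to 149 counts in the IZ, with part of its 3' end shared with Tctn1 on the other strand. Cybc1, a chaperone for the gp91phox and p22phox pair, rose by 1.63 ± 0.15 (SE). Rap1a, a small GTPase that copurifies with the core, averaged 65.7 ± 7.85 CPM in the 8 sham libraries and 71.0 ± 8.56 CPM in the 9 IZ libraries (SD) and was not called (log2 fold change 0.11 ± 0.10, SE, adjusted p 0.325). Under total counts it was called higher (1.20, adjusted p 2.78e-09), and its 3' end matches the gene model Gm9392 at 99.3% over 327 bases, so that its counts are uncertain. The largest adjusted p of the called 3, Rac1 included, was 5.91e-04 by edgeR's quasi-likelihood test.

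Other NADPH oxidases had few or no counts in these libraries. Nox3 had no count in any of the 17, which allows at most 0.0684 CPM over all libraries together (3 counts, for counting error only), and Nox1 had 1 count in all. Duox1, Duox2, Duoxa1 and Duoxa2 had at most 3 counts in any library. Without a filter Duoxa2 was called lower (adjusted p 0.0239, edgeR's quasi-likelihood test), from 0 to 2 counts in each sham library and none in the IZ, and DESeq2 gave it no adjusted p. Such counts are too few to give the size of a difference. Noxo1, an organiser that resembles p47phox, was seen with 0 to 4 counts per sham library and 2 to 11 per IZ library. It was too low for the main test, and without a filter its log2 fold change of 1.27 missed the threshold (adjusted p 0.0748, edgeR's quasi-likelihood test). Noxa1 was not analysed here.

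Genes that signal to the assembly of the oxidase, or that bind NOX4 or the organisers, were taken from a list of 22 chosen by role. Of the 21 tested, 19 were called higher, 1 lower and 1 was not called, where 36.3% of all genes tested were called higher and 33.1% lower, and their median log2 fold change was 2.29 against 0.05 for all genes tested. Vav1, an exchange factor that loads Rac in blood cells, rose most, by 4.10 on the log2 scale from 2.23 ± 1.40 to 39.7 ± 10.9 CPM (SD, n = 8 and 9). Fgr, a kinase of the Src family in myeloid cells, rose by 3.77 ± 0.53 (SE) from only 0 to 5 counts per sham library. It lay above all sham hearts in 8 of 9 infarcts, and IZ replicate 1 (1.44 CPM) was below the highest sham heart (2.71 CPM). Low counts left 16 alternatives that could test Fgr, and it was called higher in all 16. At the other end, Poldip2, reported to bind p22phox and to support NOX4, fell from 97.9 ± 17.4 to 40.1 ± 11.7 CPM (SD, n = 8 and 9), a log2 fold change of -1.29 with the highest IZ library at 64.6 CPM and the lowest sham library at 72.9 CPM. Prkca, a kinase that can phosphorylate p47phox, was not called at -0.35 ± 0.19 (SE, adjusted p 0.0976, edgeR's quasi-likelihood test). Under scaling by total counts its direction turned and it was called higher (0.72, adjusted p 6.92e-04, same test). It was called lower without sham replicate 3 (-0.47, adjusted p 0.0122) and without IZ replicate 1 (-0.45, adjusted p 0.0288). For Vav1, Fgr and Poldip2 the largest adjusted p was 1.15e-06 by edgeR's quasi-likelihood test, and under total counts Poldip2 was no longer called (-0.24, adjusted p 0.105).

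**Figure D3:**
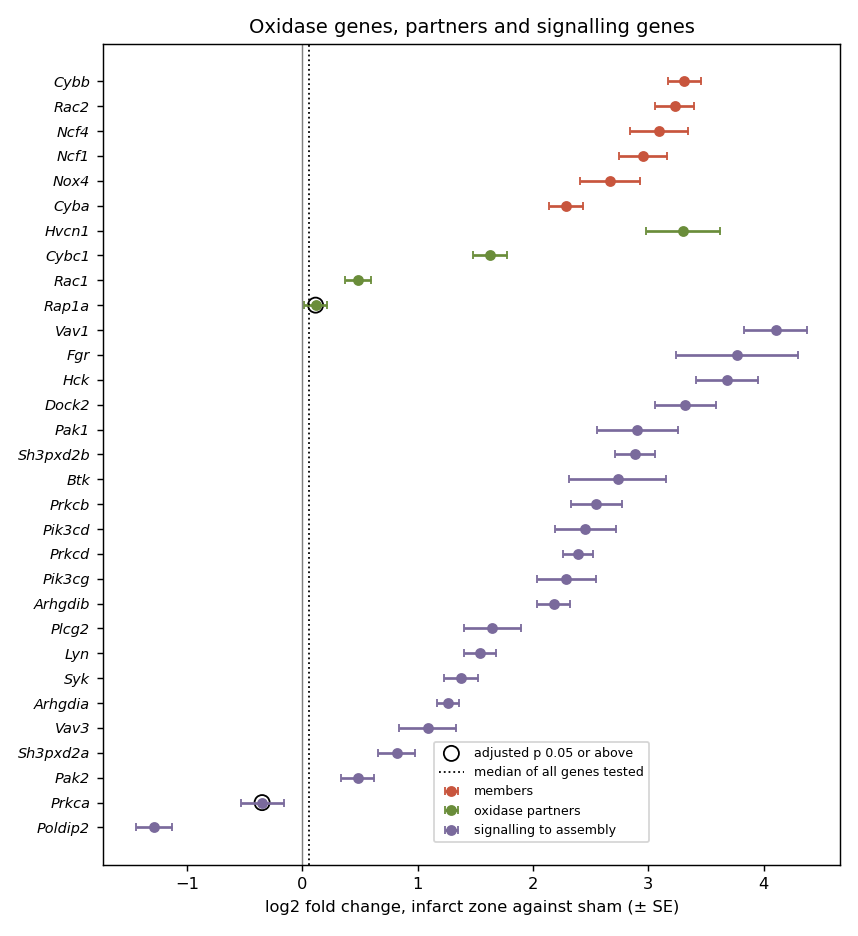
Log2 fold change between IZ and sham with its SE for the 6 oxidase genes (red, marked members), the 4 tested partners (green) and the 21 tested signalling genes (violet), with a dotted line at the median of all genes tested. The 6 genes lie between 2.29 and 3.31, Rap1a and Prkca (ringed) were not called, and Poldip2 is the gene called lower.

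The spread among the infarcts was of like size for the 6 genes. The coefficient of variation over the 9 IZ libraries was 16.1% for Nox4, 17.8% for Rac2, 19.4% for Cybb, 21.4% for Cyba, 22.5% for Ncf1 and 26.2% for Ncf4. IZ replicate 1 made part of it. Its levels were 38.1% of the IZ median for Ncf4, 47.1% for Cyba, 55.5% for Ncf1, 66.0% for Cybb and 67.8% for Rac2, but 101% for Nox4. Without it, the coefficient of variation fell to 9.80% for Cyba and 13.3% for Ncf4. Leukocyte markers were likewise lowest in IZ replicate 1, with a sum of 222 CPM against 371 to 574 CPM in the other infarcts. Their part in its low oxidase levels was not tested.

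**Figure D4:**
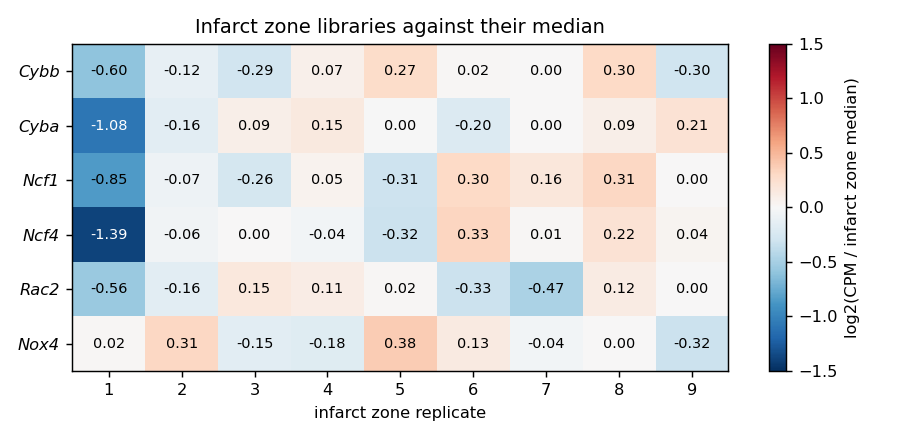
Each IZ library (columns, replicates 1 to 9) against the median of the 9, as log2 of the ratio of CPM values, for the 6 oxidase genes (rows), with blue for lower and red for higher. Replicate 1 was low for 5 genes, down to -1.39 for Ncf4, and at 0.02 for Nox4.

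Whether infarcts rich in one transcript were rich in another was tested for the 15 pairs of the 6 genes over the 9 IZ libraries, by exact two-sided permutation of log2 CPM over all 362880 pairings. After Benjamini-Hochberg adjustment over the 15 pairs, 2 passed by Pearson's r and none by Spearman's rho. Ncf1 and Ncf4 rose and fell together (r = 0.93, exact permutation p 3.78e-04, adjusted 0.00566), with a rho of 0.87 (exact permutation p 0.00451, adjusted 0.0676). Without the 2 libraries farthest from the median of Ncf1, replicates 1 and 8, r was 0.81. Cyba and Rac2 had an r of 0.74 (exact permutation p 0.00647, adjusted 0.0485) and a rho of 0.65 (exact permutation p 0.0666, adjusted 0.333), and an r of 0.67 without replicates 1 and 9. The call for Cyba and Rac2 was lost in 8 of 12 alternatives, among them the omission of IZ replicate 1, 2, 3, 4, 6, 8 or 9, and that for Ncf1 and Ncf4 in 1.

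Several other relations among the subunits rested on IZ replicate 1. Cyba and Ncf4 had an r of 0.85 with it (exact permutation p 0.0753, adjusted 0.190) and -0.20 without it, and Cybb and Cyba 0.60 (exact permutation p 0.0908, adjusted 0.195) and -0.16. Without it, no pair passed the adjusted threshold, and Ncf1 with Ncf4 had an r of 0.84 (exact permutation p 0.00828, adjusted 0.124). Nox4 stood against Cyba in rank order, with a rho of -0.78 (exact permutation p 0.0172, adjusted 0.129), an r of -0.27 (exact permutation p 0.492, adjusted 0.615) and an r of -0.66 without replicates 1 and 9. That relation failed the correction and changed sign, to an r of 0.39, when levels were scaled by total counts.

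**Figure D5:**
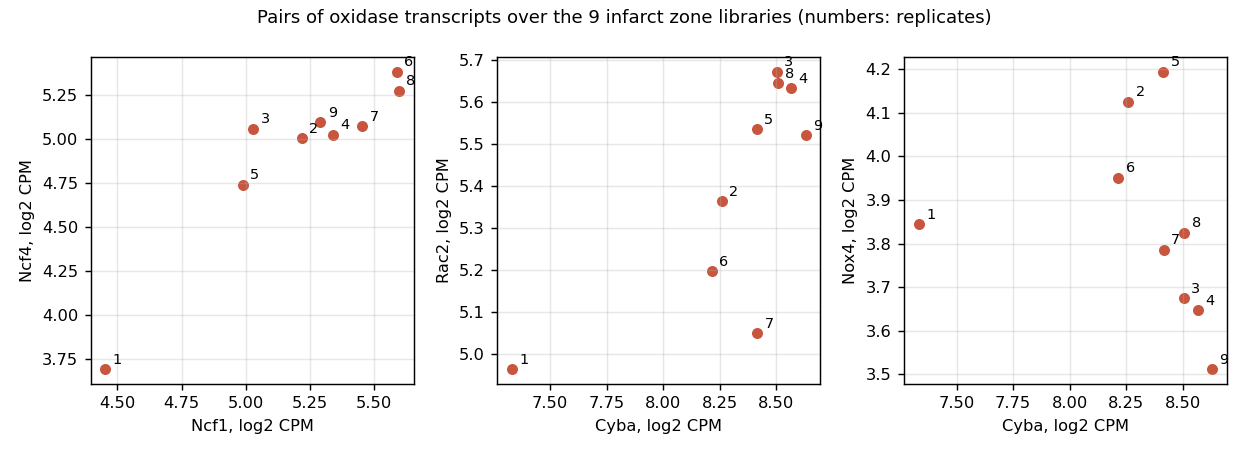
Log2 CPM of 3 pairs of oxidase transcripts over the 9 IZ libraries, each point labelled with its replicate number. Ncf1 and Ncf4 rise together (r = 0.93), as do Cyba and Rac2 (r = 0.74), with replicate 1 at the lower left of both, and Nox4 tends to be lower where Cyba is higher apart from replicate 1.

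The genes whose pattern was most like each of the 6 were sought among 9315 tested genes whose mean level reached 10 CPM, by Pearson's r of log2 CPM centred within each group over the 17 libraries. These values describe the best of many genes, in libraries that share depth and scaling, and carry no test. For Ncf1 they were Cd300ld (r = 0.88), an activating receptor of myeloid cells, Tnfsf12 (0.87) and Dedd (0.85). For Ncf4 they were Arhgap45 (0.85), Mrtfa (0.84) and Msr1 (0.84), the last a scavenger receptor of macrophages. For Cyba they were Ctsb (0.91), a lysosomal protease, Arpc3 (0.90), a subunit of the complex that branches actin, and Cstb (0.89), an inhibitor of such proteases. For Rac2 they were Rab29 (0.79), B2m (0.78), the light chain of MHC class I, and Tgfb1i1 (0.77). For Cybb they were Map1b (0.86), Cblb (0.82) and Tmem51 (0.79), and for Nox4 Tlnrd1 (0.82), Bptf (0.82) and Hacd2 (0.80). Spearman's rho ran from 0.56 for Ctsb with Cyba and 0.60 for Mrtfa with Ncf4 up to 0.91 for Cd300ld with Ncf1. IZ replicate 1, the lowest infarct for Cyba and Ncf4, was included, and its part in these values was not tested.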

How the data were processed

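RNA of 8 sham left ventricles and 9 infarct zones, 1 library per mouse, was sequenced by massive analysis of cDNA ends, a 3' end method with molecular identifiers. The authors trimmed reads with Cutadapt, mapped them to mm10 (the submitters' processing notes name Bowtie2) and counted them per gene with HTSeq. Molecular identifiers served to remove PCR duplicates, per the labels. The deposited values are raw counts. The annotation release and the treatment of multiply mapped reads are not given in the sources used here. Features were named by GENCODE M21 (GRCm38), which matched 31554 of 31647. A further 35 are merged groups of overlapping genes with 0.0919 to 0.215% of the counts, kept for library sizes.

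The 6 genes and the lists of partners, signalling genes and markers were chosen by role with earlier results of these data known. Genes passing filterByExpr (minimum of 10 counts) were tested in edgeR 4.0.16 (R 4.3.3) by the quasi-likelihood F-test, two-sided, without covariates, after TMM scaling (factors 0.616 to 1.53), with Benjamini-Hochberg adjustment over all 12301 genes. SE values derive from the F statistic. Log2 CPM used a prior count of 1. All 6 genes passed the filter. Of the lists, every partner and other oxidase and the 2 highest and 2 lowest signalling genes were named, except 1 partner that is not reported here. P values set a difference or a correlation against the spread between these hearts. SE values include that spread, and the floor given for Nox3 covers counting error only.

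Near-identical 3' ends were sought with BLAST 2.17.0 (last 500 bases, matches of at least 100 bases at 95% identity), and none of the 6 genes had one. Between any 2 libraries, chi-square per degree of freedom over genes was 2.56 to 281, so none was a copy. Alternatives were other scalings, DESeq2 1.42.0, other filters, the replicate number as a block, leaving out mitochondrially encoded features, equal depth by thinning, the omission of each library, other pseudocounts and medians. The edgeR procedure was tested on simulated data. Python 3.11.15, NumPy 2.4.6, SciPy 1.17.1, pandas 2.3.3 and Matplotlib 3.10.9 served for the other steps.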

Additional observations from a re-analysis of the deposited data

Results flagged for a closer look

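In 40 sets of values (6 levels and 14 ratios, each in sham and in the IZ), 2 held a library far from the others by Dixon's criterion, which chance alone meets in about 1 in 20 sets. Cyba in IZ replicate 1 was at 161 CPM, with the nearest infarct at 297 CPM. Ncf4 in sham replicate 3 was at 7.84 CPM, with the next sham heart at 4.42 CPM.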

How the results depend on the processing

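The 6 rises kept their direction and their call in all fits that could be made, 26 for each gene and 25 for Nox4, which a minimum mean of 50 counts removed. Leaving out 1 library at a time gave log2 fold changes of 3.25 to 3.36 for Cybb, 2.24 to 2.34 for Cyba, 2.86 to 3.07 for Ncf1, 2.95 to 3.27 for Ncf4, 3.16 to 3.30 for Rac2 and 2.51 to 2.78 for Nox4. Total counts alone as library sizes moved the median of all genes by 1.08 and upper quartile scaling by 0.11. Relative to those shifts, Cybb was at 3.33 and 3.31 and Nox4 at 2.66 and 2.66. Sham and IZ share replicate numbers 1 to 8, which name different mice. Deviations of same-numbered libraries from their group means correlated at -0.22 to 0.13, above 0.1 in 1 of 8 pairs. With the replicate number as a block (replicates 1 to 8), 7884 genes and again all 6 of these were called, and the block changed no call of the named genes it could test. A minimum mean of 50 counts left 5239 calls over all genes in place of 8544, and 14 of 16 partner and signalling genes in place of 23 of 25, since fewer genes were tested. Of the ratios, 5 passed the threshold, and 9 did with 5 added to each count. Nox4 per Cyba then turned to -0.53, past the threshold, and Ncf4 per Ptprc to -0.045, and medians gave -0.10 and -0.16. Leaving out 1 library moved Ncf1 per Ptprc between -0.13 and 0.20 and Ncf4 per Ptprc between -0.12 and 0.21. Under total counts alone 1 of 15 relations passed in place of 2, and r turned to 0.39 for Cyba with Nox4, 0.45 for Ncf1 with Nox4, 0.48 for Ncf4 with Nox4 and 0.35 for Rac2 with Nox4. Leaving out 1 infarct left 0 to 3 relations: 0 without replicate 1, 3 without replicate 5 and 1 without replicate 2, 3, 4, 6, 8 or 9. The r values then ran from -0.16 to 0.76 for Cybb with Cyba, -0.064 to 0.77 for Cybb with Ncf4, -0.17 to 0.82 for Cyba with Ncf1, -0.20 to 0.95 for Cyba with Ncf4, -0.41 to 0.48 for Ncf1 with Rac2, -0.24 to 0.66 for Ncf4 with Rac2 and -0.21 to 0.028 for Ncf1 with Nox4. Prkca turned to 0.72 under total counts and was called higher there (adjusted p 6.92e-04, edgeR's quasi-likelihood test). Adding 5 to each count draws ratios towards 1, most in sham, where counts were few. The cause of the other changes was not tested.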
